A study of Mus musculus with 6 samples.

Results

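Potassium, sodium and chloride channel genes were followed in primary mouse myoblasts, the precursors of muscle fibres. The set holds every probe set, the group of short oligonucleotides that reads a transcript on the array, that has exactly 1 gene symbol starting with Kcn, Scn or Clcn. Its mean over the 6 arrays had to reach the median of all probe sets, a log2 signal of 7.22. Members were thus chosen by symbol and by mean signal over both groups. They came to 37 of 45101 probe sets and 23 genes, out of 212 probe sets and 103 genes with such symbols (a few further symbols were left out by the rule). The level over all 6 arrays is therefore a description here and is not tested.

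The study set 3 arrays of control myoblasts against 3 arrays of myoblasts with an shRNA (a hairpin-forming RNA for knockdown) directed at LncMyoD, a long noncoding RNA studied for its part in muscle differentiation. The hairpin was delivered by lentivirus from the vector Tet-pLKO-puro, packaged in 293T cells. What the controls received, and whether the profiled cells were in growth or differentiation medium, is not given in the labels. Every sample has a labelled age of 21 days. LncMyoD itself was not matched to a probe set, so its knockdown was not analysed here. Replicates are called biological, but whether they are separate animals or cultures is not stated. The p-values cover the array-to-array spread alone, and that spread may be technical.

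Voltage-gated sodium channels start and carry the action potential of excitable cells, and potassium channels set the resting potential and end the action potential. The muscle membrane is further steadied by a plasma membrane chloride channel, whereas most other members of the Clcn family exchange chloride for protons in endosomes and lysosomes. In myoblasts, potassium currents that make the membrane potential more negative are known to precede fusion. The arrays measure transcript levels, not currents.

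All 11 muscle markers, among them Myod1, Des and Acta1, were bright, with control means of 10.53 or more (log2 signal). In limma's test 7 of them fell and 1 rose in the shRNA arrays. Of all genes tested 22.8% fell and 35.7% rose, and these shares also stand beside the counts of other markers below. Ckm, the creatine kinase of muscle, fell by 1.41 and Actn2, an actinin of the sarcomere, by 0.64, the largest falls among the 11. The others that fell did so by 0.088 to 0.33, and the 1 that rose, Cdh15, did so by 0.40. Myod1 and Des differed by 0.023 and 0.034 and were not called. The part of these muscle transcripts in the channel values was not tested. Arrays correlated at r = 0.996 to 0.997 within a group and 0.987 to 0.990 between groups. The log2 ratio of 3' to 5' signal, a sign of RNA integrity, was higher in every shRNA array, from 0.51 ± 0.018 to 0.55 ± 0.017 for actin and from 0.14 ± 0.045 to 0.23 ± 0.038 for GAPDH (SD, n = 3; exact permutation p = 0.1 for each, two-sided, the smallest that 20 assignments allow). Its part in the differences below was not tested. Few markers of other cells were bright enough to test. Of 8 fibroblast markers with a probe set 3 were tested (1 rose, 2 fell), and of 7 leukocyte markers 3 (1 rose). The leukocyte marker that rose, Cd68, had a control mean below the lowest mean tested and entered the test only through its shRNA arrays. Its call held in 6 of 13 alternative settings and ended with arrays centred on their medians. Of 8 smooth muscle and pericyte markers 6 were tested (1 rose, 1 fell). Of 4 adipocyte markers only Lpl was tested, and it rose, and of 7 endothelial markers only Cldn5, which was not called. Fewer cells of a type and less RNA per cell cannot be told apart on such arrays.

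In the shRNA arrays 24 of the 37 probe sets (64.9%) passed limma's threshold of an adjusted p of 0.05, 13 of them higher and 11 lower. Of all 22490 probe sets at or above the median 58.8% passed, 33.6% higher and 25.2% lower, so the share in the set lay near the background. Over all 27022 probe sets tested the share was 53.9%, with 30.4% higher and 23.5% lower, or 24.7% and 30.2% of 54.9% after centring arrays on their medians over these probe sets. With each gene represented by its brightest probe set, 6 of 23 genes were called higher, 6 lower and 11 in neither direction. That is 52.2% called, against 62.3% of all genes with a probe set at or above the median (38.2% higher, 24.1% lower). The arrays of the groups did not overlap in 22 of the 37 probe sets, against 63.8% of probe sets at or above the median (36.7% all higher and 27.2% all lower in shRNA arrays). The median difference was 0.0040 over the 23 genes and 0.046 over all genes tested.

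On their brightest probe sets the called genes thus rose and fell in equal number, but this balance depended on the setting. With arrays centred 5 rose and 6 fell, and with the probe sets of a gene averaged 6 rose and 4 fell. The 6 that fell include Kcnq1ot1, which encodes no channel, and Clcn5, whose probe sets were called in opposite directions. The size of the difference had a median of 0.21 over the 23 genes and of 0.21 over all genes tested (log2 scale). Differences of at least 2-fold were measured for Kcnf1 and Kcnq5, potassium channel genes that rose, and Scn3b, a sodium channel subunit gene that fell. These are 3 of 23 genes (13%), against 3.77% of all genes tested, which include genes below the median. By probe set the share was 8.11% of the 37, against 3.35% of all probe sets at or above the median. The shares were not compared by a test. Kcnq5, counted in the shares of the set, reached it only through its shRNA arrays, and the size of its change is not settled.

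**Figure D1:**
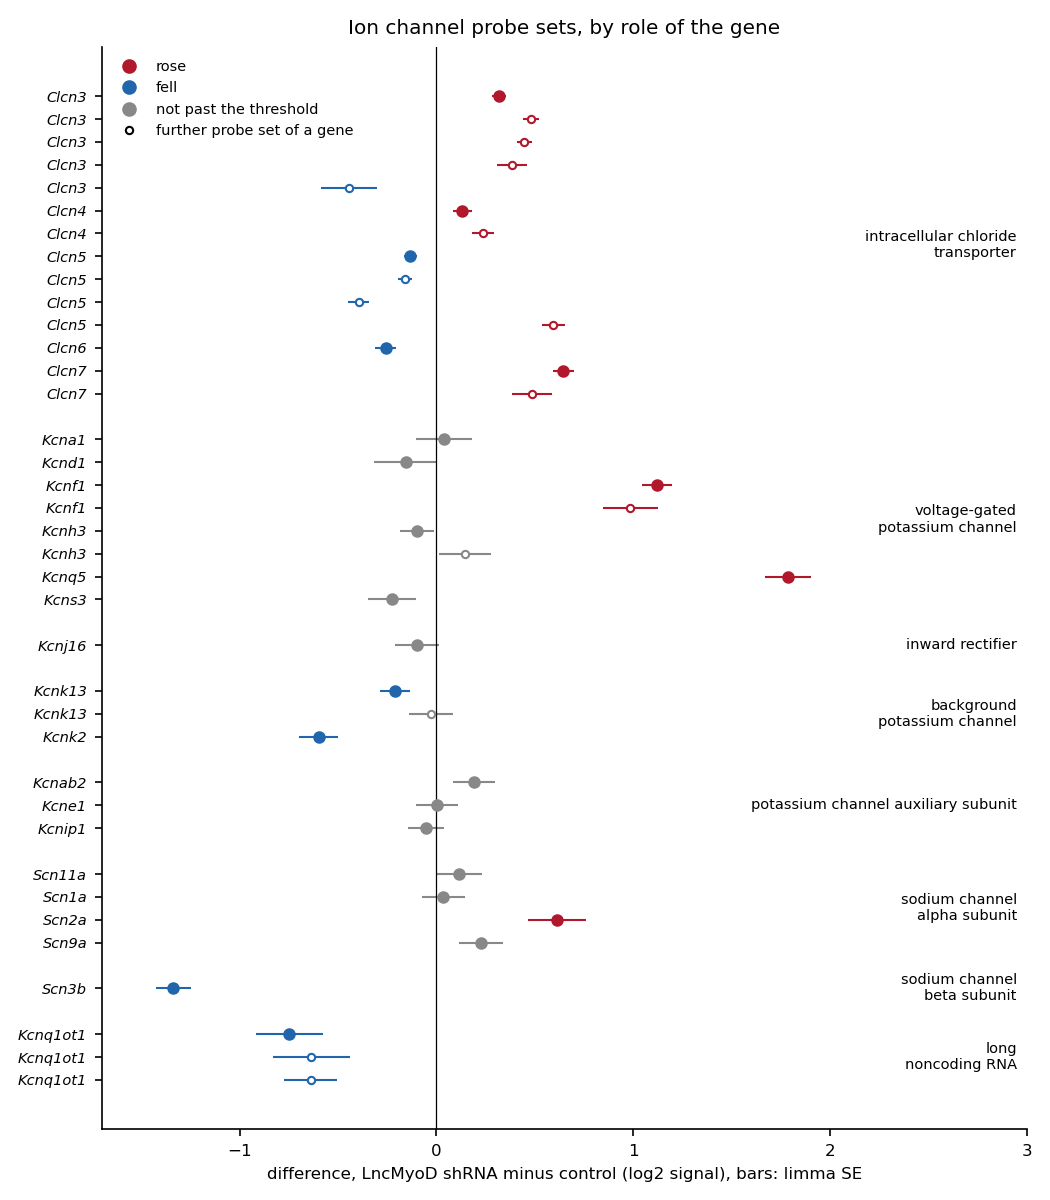
Difference between 3 LncMyoD shRNA and 3 control arrays (log2 signal, horizontal axis, bars limma's SE) for each of the 37 probe sets, ordered by the role of the gene; filled points stand for the gene and open points are its further probe sets. All 14 Clcn probe sets passed the threshold, with differences from -0.44 to 0.65, against 58.8% of all probe sets at or above the median. Kcnq5, Kcnf1 and Scn3b lie farthest from 0.

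All 5 chloride transporter genes in the set encode proteins of endosomes and lysosomes, and each was called in limma's test. Clcn3, Clcn4 and Clcn7 rose, and Clcn5 and Clcn6 fell on the probe set that stands for the gene. Of their 14 probe sets 14 passed, 9 higher and 5 lower, against 58.8% of all probe sets at or above the median. The 14 are not independent, since 5 read Clcn3 and 4 read Clcn5. Of the 23 Kcn and Scn probe sets 10 passed, among them the 3 of the noncoding Kcnq1ot1. The share called among all probe sets of like brightness was not counted. One of the 14, the dimmer of Clcn7, had a control mean below the median and entered the set only through its shRNA arrays. The standard error of a difference had a median of 0.052 on the Clcn probe sets and of 0.11 on the others, and 12 of the 14 Clcn probe sets but only 4 of the 23 others had a mean log2 signal above 9. Of those 4, 3 passed. A Clcn difference as small as 0.13 was called, and a Scn difference as large as 0.23 was not.

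Clcn7, the chloride-proton exchanger of lysosomes and of the osteoclast's ruffled border, read 9.76, 9.86 and 9.75 in controls and 10.44, 10.43 and 10.44 in shRNA arrays (log2 signal). No array overlapped, and the gap between the groups exceeded the range within either. The difference was 0.65 (SE 0.055, 1.56-fold, limma adjusted p = 6.79e-07). The dimmer probe set read 7.18 ± 0.027 and 7.67 ± 0.10 (SD, n = 3; limma adjusted p = 0.00128), and because of how it entered the set it is no independent support for this rise.

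Clcn6, a transporter of late endosomes, went the other way, from 10.86, 10.98 and 10.92 in controls to 10.70, 10.69 and 10.61. Every shRNA array was below every control, and the difference was -0.26 (SE 0.051, limma adjusted p = 0.000943). Clcn6 and Clcn7 are shown together because the RefSeq window around the start of each gene, from 250 bases before to 50 bases after it, holds CACGTG, the core of the sequence bound by regulators of lysosomal genes, 2 times. CACGTG reads alike on both strands and is a form of the E-box CANNTG, the sequence class that myogenic factors bind. Of all 32851 windows 7.15% hold CACGTG and 0.594% hold it 2 or more times. The matches begin 48 and 25 bases before the start in Clcn6, and 15 bases before and 7 after it in Clcn7. The windows are given in build GRCm38.p6, Clcn6 at chr4:148038764-148039063 on the minus strand and Clcn7 (the 5′-most of its 2 windows) at chr17:25133141-25133440 on the plus strand, 5′ to 3′ along the gene, with CACGTG in capitals; this motif was chosen after the windows were seen. The other window of Clcn7 does not hold CACGTG. Whether the motif has a part in either change was not tested.
Clcn6: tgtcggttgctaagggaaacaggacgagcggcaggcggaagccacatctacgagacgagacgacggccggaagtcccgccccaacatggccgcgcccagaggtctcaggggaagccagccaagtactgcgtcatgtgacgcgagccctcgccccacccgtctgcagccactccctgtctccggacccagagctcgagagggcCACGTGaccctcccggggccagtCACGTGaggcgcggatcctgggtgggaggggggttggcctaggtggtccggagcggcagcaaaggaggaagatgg
Clcn7: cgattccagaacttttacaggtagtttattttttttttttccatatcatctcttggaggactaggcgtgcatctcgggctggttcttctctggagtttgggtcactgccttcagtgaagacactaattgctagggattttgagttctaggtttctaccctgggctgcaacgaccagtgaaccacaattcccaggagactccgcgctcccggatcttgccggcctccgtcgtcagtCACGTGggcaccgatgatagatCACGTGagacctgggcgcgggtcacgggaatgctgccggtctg

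Clcn3, an exchanger of endosomes and synaptic vesicles, had 5 probe sets in the set. Its brightest read 13.16, 13.15 and 13.14 in controls and 13.40, 13.51 and 13.48 in shRNA arrays, a difference of 0.32 (SE 0.037, limma adjusted p = 9.38e-06). A set of 3 others rose by 0.48, 0.45 and 0.39, the 0.45 on a probe set whose identifier marks probes that may bind other transcripts. The dimmest fell by 0.44 (SE 0.14, limma adjusted p = 0.0178), with control values of 7.58, 7.92 and 8.02 and shRNA values of 7.67, 7.21 and 7.30. Its arrays overlapped, since control 1 lay below shRNA array 1, and its call ended without control 2 (-0.40, limma adjusted p = 0.0586), control 3 (-0.36, 0.0886), shRNA array 2 (-0.35, 0.0777) or shRNA array 3 (-0.40, 0.0579). The 4 brighter probe sets of Clcn3 kept their groups apart and passed in all 14 alternatives.

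Clcn5, the exchanger of endosomes whose loss causes a kidney disorder of protein reuptake, was, beside Clcn3, the other gene whose probe sets were called in opposite directions. Its brightest probe set fell by 0.13 (SE 0.031, limma adjusted p = 0.00298), from 13.78, 13.78 and 13.81 to 13.66, 13.67 and 13.66. A pair of probe sets whose identifiers mark probes that may bind other transcripts fell by 0.16 and 0.39. The dimmest probe set rose instead, from 9.81, 9.72 and 9.76 to 10.43, 10.37 and 10.27, by 0.59 (SE 0.060, limma adjusted p = 3.15e-06). Each of the 4 differences separated the groups, so no single direction holds for the gene. Averaged over its probe sets, Clcn5 differed by -0.022 (limma adjusted p = 0.626).

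Clcn4, which pairs with other endosomal exchangers, rose by 0.13 on its brighter probe set (SE 0.049, limma adjusted p = 0.0352), from 11.34, 11.30 and 11.20 to 11.37, 11.40 and 11.46. The groups were 0.032 apart at their closest, and the call held in 4 of 14 alternatives, with a difference of 0.069 (limma adjusted p = 0.188) when arrays were centred. It ended without control 2 (0.14, limma adjusted p = 0.0568), control 3 (0.092, 0.136), shRNA array 2 (0.14, 0.0769) or shRNA array 3 (0.11, 0.120). Its second probe set rose by 0.24 (SE 0.057, limma adjusted p = 0.00353) and passed in all 14.

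**Figure D2:**
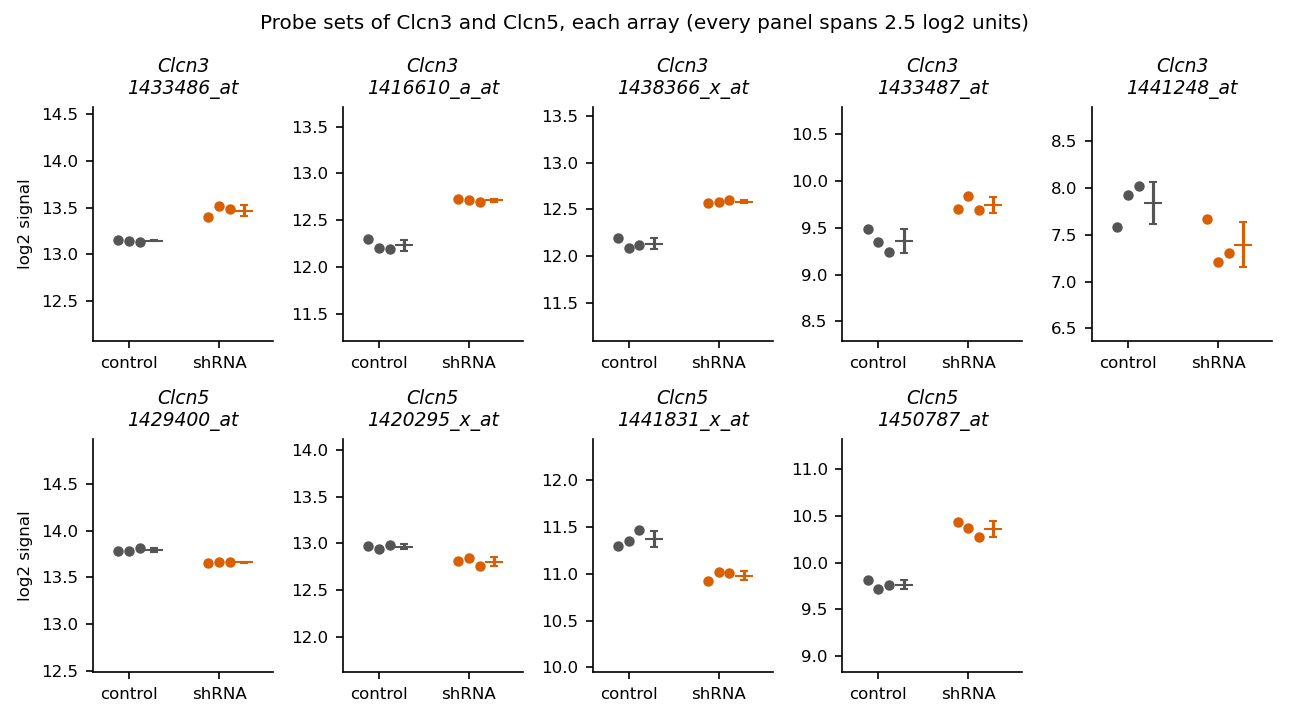
Log2 signal (vertical axis) of each array for the 5 probe sets of Clcn3 and the 4 of Clcn5, with the mean and SD of the 3 arrays beside the points; every panel spans the same range. The dimmest probe set of each gene moved against the others.

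Among 6 genes of voltage-gated potassium channels Kcnq5 and Kcnf1 rose, 4 did not pass and none fell. Of all genes with a probe set at or above the median 38.2% rose and 24.1% fell. These shares also stand beside the counts of the other roles below. Kcnq5, a subunit of the slow M-type potassium current that damps repeated firing, read 6.48, 6.30 and 6.68 in controls and 8.32, 8.31 and 8.20 in shRNA arrays. The groups lay 1.52 apart at their closest, farther than in any other member. The difference was 1.79 (SE 0.12, 3.46-fold, limma adjusted p = 5.79e-08) and stayed between 1.70 and 2.00 over 14 alternatives. It rests on 1 probe set, and 2 more of Kcnq5 lay below the median. Because this probe set entered the set only through its shRNA arrays, its p and its range over alternatives are no independent support. The control mean, 6.49, lay below 6.50, the lowest mean of any probe set tested, and whether it was above background could not be tested. The size of the change is therefore not settled.

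Kcnf1 encodes a subunit that forms no channel on its own and modifies delayed rectifier channels of the Kcnb type. It read 10.88, 10.57 and 10.53 in controls and 11.81, 11.80 and 11.74 in shRNA arrays. The difference was 1.12 (SE 0.075, 2.18-fold, limma adjusted p = 7.87e-08), well outside the spread of either group. A second probe set of Kcnf1 rose by 0.99 (SE 0.14, limma adjusted p = 6.66e-05), from 7.60, 6.96 and 7.17 to 8.28, 8.28 and 8.14. On both, control 1 was the highest control array. Both probe sets passed in all 14 alternatives.

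Of the voltage-gated genes that did not pass, Kcns3, like Kcnf1 a silent subunit, differed by -0.22 (SE 0.12, limma adjusted p = 0.144), and Kcnd1, of the rapidly inactivating A-type current, by -0.16 (0.433). Kcna1, a delayed rectifier of nerve axons, was at 7.55 ± 0.097 and 7.59 ± 0.32 (SD, n = 3; limma adjusted p = 0.837). Kcnh3, of the ether-a-go-go family, differed by -0.098 on its brighter and 0.15 on its dimmer probe set (limma adjusted p = 0.361 and 0.387). The identifier of the dimmer one marks probes that may bind other transcripts. In these 4 genes the arrays of the groups overlapped. Without control 1, Kcns3 was called at -0.34 (limma adjusted p = 0.0212), and without shRNA array 1 the dimmer probe set of Kcnh3 at 0.31 (0.0400). Among members that did not pass, array shRNA 1 had the lowest value of Kcna1, Kcnd1, Kcnj16, both Kcnh3 probe sets, Kcns3 and Scn1a. The values were 7.24, 7.27, 7.99, 8.72, 7.61, 7.28 and 7.62.

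Auxiliary subunits of potassium channels gave no call. Kcnab2, a cytoplasmic beta subunit related to aldo-keto reductases, differed by 0.19 (SE 0.11, limma adjusted p = 0.144). Kcne1, the small partner of Kcnq1 in the heart, was at 7.53 ± 0.12 and 7.53 ± 0.11, and Kcnip1, a calcium sensor that binds A-type channels, at 9.80 ± 0.085 and 9.75 ± 0.20 (SD, n = 3; limma adjusted p = 0.980 and 0.648). Kcnj16, the 1 inward rectifier gene in the set, was at 8.36 ± 0.040 and 8.26 ± 0.24 (limma adjusted p = 0.485).

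Both background potassium channel genes fell, against 24.1% of all genes with a probe set at or above the median, though only Kcnk2 was called in every setting. Kcnk2, a channel opened by membrane stretch and lipids, read 8.67, 8.45 and 8.70 in controls and 8.07, 7.86 and 8.10 in shRNA arrays. No shRNA array reached the lowest control. The difference was -0.60 (SE 0.10, 1.51-fold, limma adjusted p = 0.000258). Kcnk13, a channel known from microglia, fell by 0.21 (SE 0.076, limma adjusted p = 0.0317), from 9.24, 9.07 and 9.06 to 8.87, 8.92 and 8.95. Leaving out control 1 gave -0.15 (limma adjusted p = 0.0926), leaving out shRNA array 1 gave -0.19 (0.103) and leaving out shRNA array 2 gave -0.21 (0.0713), and each ended the call. A dimmer probe set of Kcnk13, whose identifier marks probes that may bind other transcripts, differed by -0.027 (limma adjusted p = 0.860).

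Among 5 sodium channel genes the auxiliary subunit gene Scn3b fell, the pore-forming subunit gene Scn2a rose and 3 other pore-forming subunit genes did not pass. The shares over all genes with a probe set at or above the median were 24.1% lower and 38.2% higher. Scn3b, a beta subunit that changes the gating and surface level of sodium channels, read 8.58, 8.66 and 8.68 in controls and 7.35, 7.24 and 7.33 in shRNA arrays. The groups lay 1.23 apart at their closest. The difference was -1.34 (SE 0.090, 2.52-fold, limma adjusted p = 7.73e-08), between -1.43 and -1.30 over 14 alternatives. It rests on 1 probe set, and a further one of Scn3b lay below the median.

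Scn2a, a pore-forming subunit known from neurons, rose by 0.61 (SE 0.15, 1.53-fold, limma adjusted p = 0.00358), from 7.50, 7.31 and 7.34 to 7.63, 8.04 and 8.31. The shRNA arrays were spread over more than the distance from shRNA array 1 to the highest control. The difference ranged from 0.45 to 0.79 over 14 alternatives, each of which called it. Another 3 probe sets of Scn2a lay below the median. Scn9a, Scn11a and Scn1a, pore-forming subunits of sensory and central neurons, differed by 0.23, 0.12 and 0.034 (limma adjusted p = 0.104, 0.412 and 0.816). Scn9a was not called although its arrays did not overlap, with 0.0037 between the groups. Beside these genes stand the neuron and Schwann cell markers, of which 4 of 11 with a probe set were bright enough to test. Their summed linear signal ran from 772 to 855 in controls and from 1042 to 1105 in shRNA arrays. Map2 rose by 1.08 and Nefl by 0.70, Tubb3 fell by 0.56 and S100b differed by -0.099 (limma adjusted p = 0.508). Nefl had a control mean of 6.48, below the lowest mean tested, and entered the test only through its shRNA arrays. The defining markers Snap25, Syt1, Rbfox3, Syp and Sox10 were among the 7 left out as low. The part of such cells in the channel values was not tested.

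**Figure D3:**
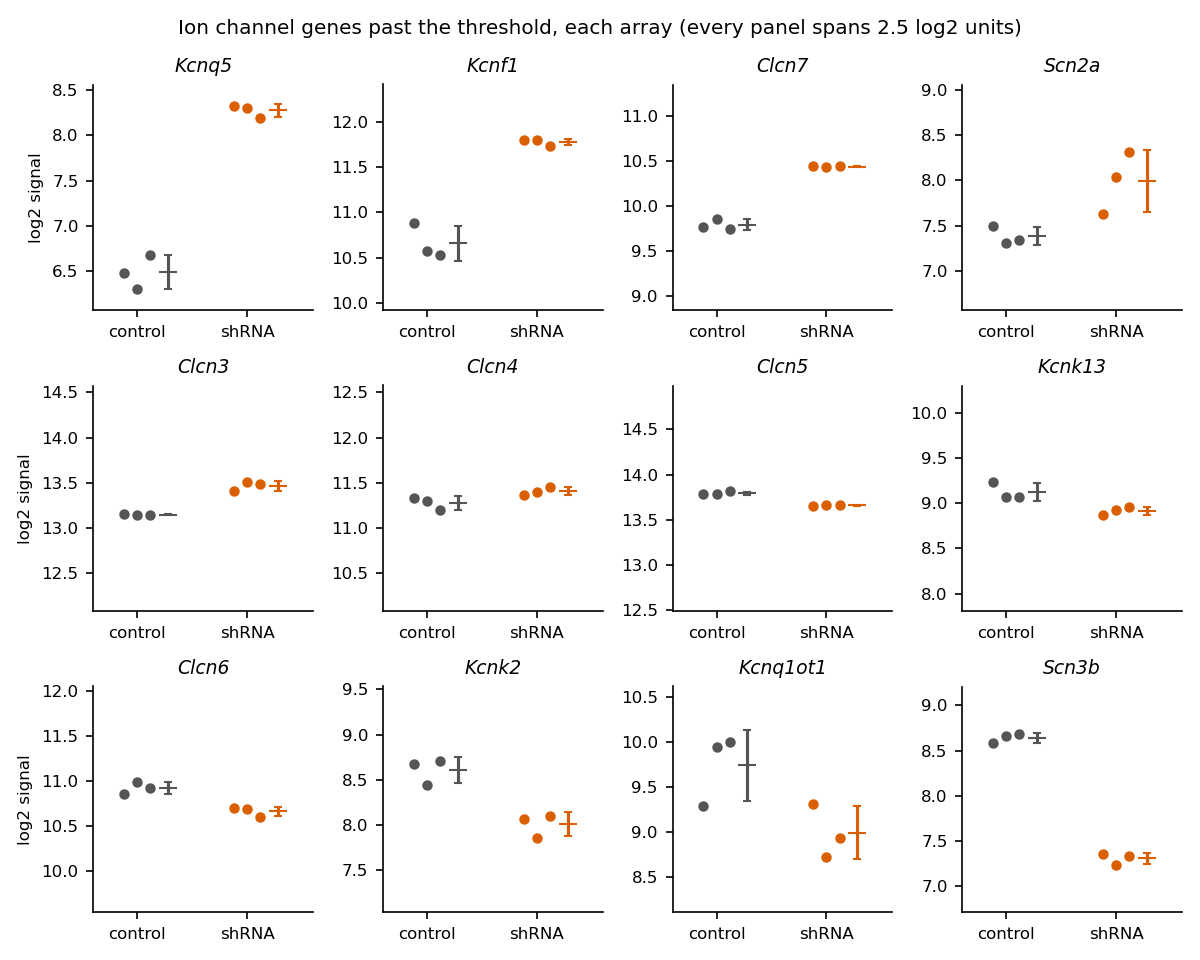
Log2 signal (vertical axis) of each array for the 12 member genes past the threshold, among them the noncoding Kcnq1ot1. The mean and SD of the 3 arrays stand beside the points. Every panel spans the same range, and panels run from the largest increase to the largest decrease. Only in Kcnq1ot1 do the arrays of the groups overlap.

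Kcnq1ot1 came into the set by its symbol and encodes no channel. It is an imprinted long noncoding RNA, read from the paternal chromosome within Kcnq1 and against its direction, and is known for silencing neighbouring genes such as Cdkn1c. It had 3 probe sets in the set and 3 more below the median. Those in the set fell, by 0.75 (SE 0.17, limma adjusted p = 0.00240), 0.64 (0.20, 0.0155) and 0.64 (0.13, 0.00137). The first read 9.29, 9.94 and 9.99 in controls and 9.31, 8.73 and 8.94 in shRNA arrays.

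The 3 probe sets in the set shared 1 pattern across arrays. Control 1 was the lowest control on each of them, at 9.29, 8.71 and 8.38, and shRNA array 1 the highest shRNA array, at 9.31, 8.96 and 8.26. Through these arrays the groups overlapped on 2 of the 3. Without control 1 the differences were larger, up to -0.97 on the first, and the second fell short of the threshold when control 2 (-0.54, limma adjusted p = 0.0551), control 3 (-0.45, 0.0936) or shRNA array 2 (-0.53, 0.0600) was left out. Kcnq1 itself lay far below the median, at 6.07 ± 0.16 and 5.46 ± 0.17 (SD, n = 3), and was not tested.

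The window around the start of Kcnq1ot1 is shown because this promoter lies in the imprinting control region of the locus and is known for its repeated CCAAT boxes. On the minus strand at chr7:143296498-143296797 (RefSeq, GRCm38.p6) it holds CCAAT, searched on both strands, 3 times, given in capitals. Of all windows 37.4% hold CCAAT and 3.21% hold it 3 or more times; this motif too was chosen after the window was seen.
Kcnq1ot1: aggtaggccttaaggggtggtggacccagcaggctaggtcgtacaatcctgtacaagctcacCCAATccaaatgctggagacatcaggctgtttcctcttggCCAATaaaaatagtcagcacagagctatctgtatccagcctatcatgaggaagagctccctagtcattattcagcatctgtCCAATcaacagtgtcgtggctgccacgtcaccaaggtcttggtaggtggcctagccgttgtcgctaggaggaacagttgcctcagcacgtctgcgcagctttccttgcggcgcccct

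**Figure D4:**
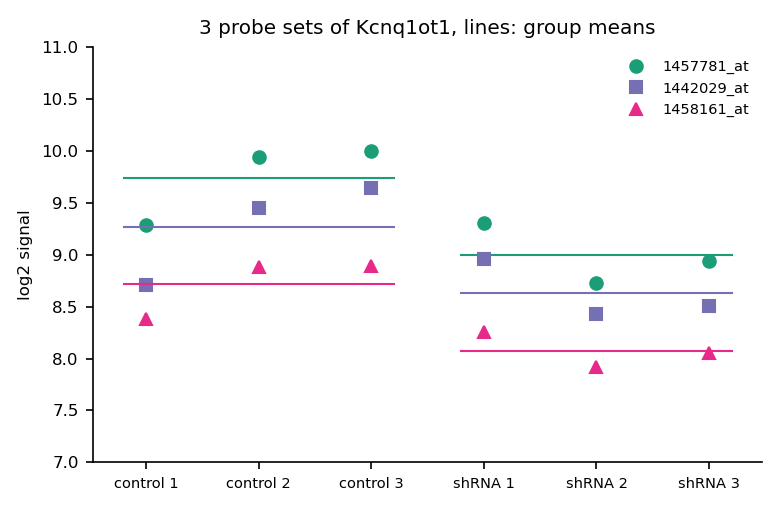
Log2 signal (vertical axis) of the 3 Kcnq1ot1 probe sets at or above the median in each of the 6 arrays, with lines at the group means. On every probe set control 1 is the lowest control and shRNA array 1 the highest shRNA array.

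Windows were matched for 18 of the 23 member genes, 35 windows in all. The E-box CANNTG was found in 28 of the 35 (80.0%), against 72.3% of all windows, and the form CAGCTG in 7 (20.0% against 16.3%). TATAAA, on both strands, was found in 3 (8.57% against 13.6%). CACGTG was found in 3, those of Clcn4, Clcn6 and Clcn7 (8.57% against 7.15%), and CCAAT in 9 (25.7% against 37.4%). The 5′-most windows of Kcnq5 and Kcnf1, which rose, and of Kcnab2, which was not called, hold no CANNTG.

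Just inside the median lay probe sets of Kcnk13 (7.30), Kcnq5 (7.38) and Clcn7 (7.43), and just outside it those of Kcnk10 (7.15), Kcnip2 (7.10) and Kcnn4 (7.09), as mean log2 signal over the 6 arrays. Of the 175 probe sets below the median 149 were too low to test, and 31 of the 175 belong to genes with a member. A list of 29 channel genes with known roles in muscle or in excitable cells held 6 members, 18 genes below the median and 5 that are not analysed here. Clcn1, the chloride channel that steadies the muscle membrane, was at 5.63 ± 0.13 and 5.30 ± 0.091 (SD, n = 3), and was not tested. Kcnj2, the inward rectifier known for the more negative potential of fusing myoblasts, read 5.56, 7.46 and 7.25 in controls and 6.73, 7.30 and 5.54 in shRNA arrays. The difference lay inside this spread (-0.24, SE 0.46, limma adjusted p = 0.696). Clcn2, a chloride channel opened at negative potentials, rose by 0.75 (SE 0.13, limma adjusted p = 0.000351), from 6.65 ± 0.17 to 7.41 ± 0.19, and Kcnn4, a calcium-activated potassium channel, by 0.55 (SE 0.11, limma adjusted p = 0.00112), from 6.82 ± 0.15 to 7.37 ± 0.043.

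Genes that work beside these channels were taken from 4 lists and are set against 35.7% of all genes tested that rose and 22.8% that fell (58.5% in either direction). Among calcium channels, 13 genes were tested, of which 3 rose and 6 fell (median -0.11). Cacnb2, among the 3 that rose, had a control mean of 6.43, below the lowest mean tested, and entered only through its shRNA arrays. With probe sets filtered at the median, 1 calcium channel gene rose and 6 fell. Cacna1s, the pore and voltage sensor of the muscle calcium channel, fell by 0.47, and Cacng1, its gamma subunit, by 0.60. Cacna1a, a channel of nerve terminals, rose by 0.72.

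Among pumps and transporters, 10 genes were tested, with 3 higher and 3 lower (median 0.028). Atp1b1, the beta subunit of the sodium pump, fell by 0.44 from 12.28 ± 0.025 to 11.84 ± 0.029 (SD, n = 3; limma adjusted p = 8.25e-07). The potassium-chloride cotransporter genes parted, Slc12a4 rising by 0.62 and Slc12a7 falling by 0.59.

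Other channels gave 9 increases and 3 decreases among 20 genes (median 0.16), or 9 and 5 with arrays centred. Lrrc8d, a subunit of the volume-regulated anion channel, fell by 1.73, from 10.81, 10.67 and 10.69 to 9.04, 9.01 and 8.94 (SE 0.062, limma adjusted p = 5.91e-10), while Lrrc8a, the subunit that channel cannot do without, rose by 0.33 and Lrrc8c by 0.48. Clic5, of the chloride intracellular channel family, rose by 1.20 and the pannexin Panx1 by 0.96.

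For genes that anchor or modify channels the count was 3 higher and 5 lower of 14 (median -0.029). Dpp6, a partner of A-type potassium channels as Kcnip1 is, fell by 1.09 (SE 0.086, limma adjusted p = 3.34e-07), from 8.95 ± 0.034 to 7.86 ± 0.11. Ank3, the ankyrin that holds sodium channels at axon initial segments, rose by 0.73, and Cav3, the caveolin of muscle, fell by 0.40. Nedd4l, a ubiquitin ligase that takes sodium channels from the membrane, fell by 0.49.

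**Figure D5:**
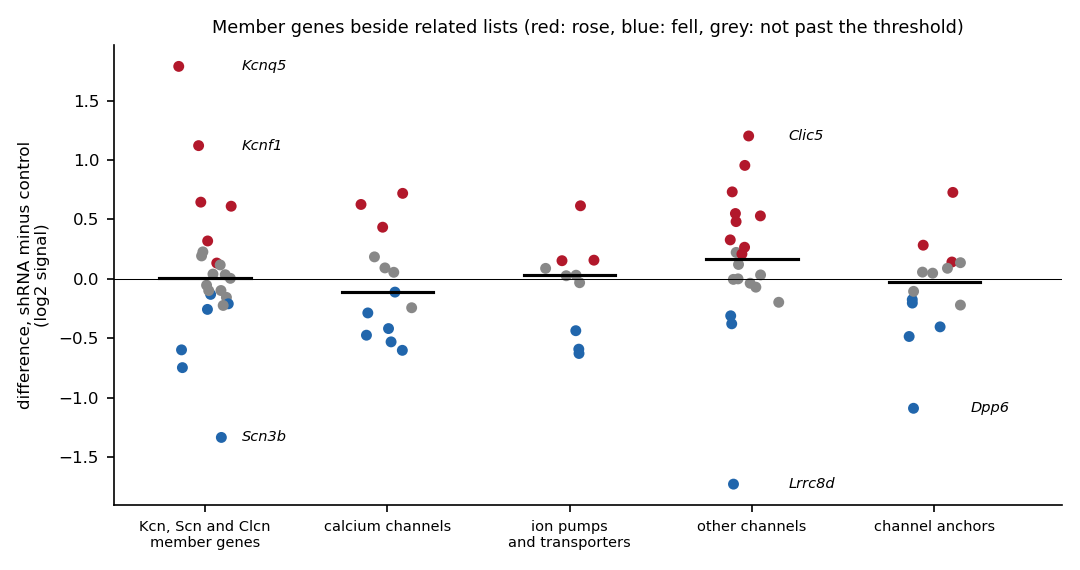
Difference between shRNA and control arrays (log2 signal, vertical axis) for the 23 member genes and for the tested genes of 4 related lists; each point is a gene and each line a median. Medians lie between -0.11 and 0.16, and genes past 1 in size are named.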

How the data were processed

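Total RNA of 6 samples was hybridised to Affymetrix mouse expression arrays. The deposited table holds 1 value per probe set and array, read as log2 from its range and normalized by the authors, with the same median over all probe sets on every array. Per the submitters' processing notes, PLIER and MAS5 are the tools named, with neither role nor version; how background was corrected, any offset and detection calls are not stated, so signal over background was not tested. Columns without a sample numbered 0.

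Probe sets were named from GEO's platform annotation (34958 with 1 symbol, 932 with several, 9211 with none), and 23 of 23 member genes were found by gene identifier in RefSeq's gene table (GRCm38.p6). The 64 control probe sets and the 40% with the lowest mean (18015) were left out, which left 27022. Differences, shRNA minus control, were tested with limma 3.58.1 in R 4.3.3 (lmFit, eBayes with a mean-variance trend, no covariates), with Benjamini-Hochberg adjustment over all probe sets tested and a threshold of 0.05. A gene is represented by its brightest probe set, with _x_at only where no other exists. Errors after ± are SDs, and SE is limma's. All members are described, and 14 alternatives were run on each probe set, with 2 more on each gene. From the related lists up to 3 genes with the smallest p and any gene past 1 are named. Ckm, Actn2, Cdh15, Cd68, Lrrc8a, Lrrc8c and Nedd4l were named after their values were seen. The members and lists were chosen with earlier results of these data known. On simulated data for the 27022 probe sets of this comparison, 59% of changes of 0.5 and 92% of changes of 1 were recovered, and 0% of calls were false. The simulation used independent normal noise and changed only 100 probe sets of each size. In the data 53.9% of probe sets were called, so the simulation cannot give the share of false calls among them.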

Additional observations from a re-analysis of the deposited data

How the results depend on the processing

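Of the 24 member probe sets called in limma's test 20 were called in all 14 alternatives. The other 4 are the dimmest of Clcn3, the brighter of Clcn4 and of Kcnk13, and the second of Kcnq1ot1. The number called ranged from 20 to 24 probe sets and from 10 to 12 genes when an array was left out. It was 23 probe sets and 11 genes with arrays centred over the tested probe sets, spike-in scaling, quantile normalization or no filter on low signals, 22 and 11 without a variance trend, and 24 and 12 with a filter at the median or with 16 subtracted from the linear signal. No called difference changed sign. With probe sets of a gene averaged, 10 genes were called, and Clcn5 and Kcnk13 (-0.12, adjusted p = 0.198) were not among them. With probe sets ending in _x_at, _s_at or _a_at left out, 12 were called. The replicate number as a block gave 22 probe sets and 10 genes; Clcn4 (adjusted p = 0.0727) and Kcnk13 (0.0557) missed the threshold. Deviations of same-numbered arrays correlated at -0.13, -0.062 and 0.031, and 1 of 6 arrays was closest to its own number in the other group, so the numbers are not taken to pair the arrays. Without a variance trend the second probe set of Kcnq1ot1 was not called (adjusted p = 0.0752). Read depth does not apply to arrays, and their number limits the precision.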
